A study of Homo sapiens with 12 samples.

Results

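The genes described here are 31 transcripts that the tumour suppressor p53 is known to switch on, chosen by name from a list of established targets, with MDM2, PPM1D and the BCL2 family left out. On the arrays 45 probes, out of 48803, named 29 of these genes, of 18665 genes named by any probe. BTG2 and FDXR had no probe under their symbols and were not analysed here. After a floor on dim probes 34 probes of 25 genes were left, among 9808 genes tested. FAS, PLK3, SPATA18 and TNFRSF10D did not pass that floor.

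The cells were U2OS, a human osteosarcoma line that keeps a functional p53, so every group shares one tumour genome. They received scramble control siRNA (siCtl) or siRNA against one of the related nuclear co-repressors NCoR (siNCoR) and SMRT (siSMRT), where each co-repressor was targeted with 3 pooled siRNAs. The cells grew for 2 days in complete medium and were then given vehicle, which the labels call no treatment, or the DNA cross-linking drug cisplatin (CDDP) at 100 µM for 6 h. This gave 6 groups of 2 biological replicates, 12 arrays in all, with total RNA as the starting material. A lower signal can mean less RNA of a gene per cell or fewer cells that carry it, and the 2 cannot be told apart in RNA from whole cultures.

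As background, p53 is a transcription factor that is held at low level by degradation and accumulates after DNA damage. It binds DNA as a tetramer on a pair of decamer half-sites and raises genes that stop the cell cycle, repair DNA, adjust metabolism or start apoptosis. NCoR and SMRT carry histone deacetylases to promoters and repress transcription from them. The question put to these genes was how far each one rose with CDDP, and whether it did so to the same extent when one of the co-repressors was targeted.

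The promoters of genes whose changes are described below are shown first. RefSeq promoter windows (GRCh38.p14, 250 bases before to 50 after a start of transcription) were matched by symbol for 25 of the 31 genes. The decamer half-site consensus of p53, searched on both strands with no mismatch, was present in 4 of these 25 windows (AEN, FDXR, PLK2 and RPS27L), or 16%, against 6.54% of 27305 promoter windows. A pair of half-sites separated by 0 to 13 bases was in 0 of the 25 windows and in 0.0293% of all. With 1 mismatch allowed outside the core of each half-site, 9 windows (36%) held a half-site, against 32.7% of all. The 3 windows that held an exact half-site and belong to a gene measured here are printed 5′ to 3′ on the strand of the gene, with the half-site in capitals. They lie at chr15:88621090-88621389 (plus strand, AEN), chr5:58460037-58460336 (minus strand, PLK2) and chr15:63157428-63157727 (minus strand, RPS27L).
AEN: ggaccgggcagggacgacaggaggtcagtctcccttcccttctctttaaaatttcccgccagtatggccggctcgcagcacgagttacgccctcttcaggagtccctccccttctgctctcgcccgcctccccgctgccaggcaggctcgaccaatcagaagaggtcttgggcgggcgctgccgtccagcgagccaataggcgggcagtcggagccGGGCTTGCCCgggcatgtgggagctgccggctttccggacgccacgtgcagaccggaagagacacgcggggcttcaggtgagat
PLK2: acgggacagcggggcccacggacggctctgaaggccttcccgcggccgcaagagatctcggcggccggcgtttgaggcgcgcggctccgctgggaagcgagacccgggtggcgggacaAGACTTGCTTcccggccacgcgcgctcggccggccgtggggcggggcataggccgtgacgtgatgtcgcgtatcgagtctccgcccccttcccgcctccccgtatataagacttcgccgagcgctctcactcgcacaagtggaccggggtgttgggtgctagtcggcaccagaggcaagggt
RPS27L: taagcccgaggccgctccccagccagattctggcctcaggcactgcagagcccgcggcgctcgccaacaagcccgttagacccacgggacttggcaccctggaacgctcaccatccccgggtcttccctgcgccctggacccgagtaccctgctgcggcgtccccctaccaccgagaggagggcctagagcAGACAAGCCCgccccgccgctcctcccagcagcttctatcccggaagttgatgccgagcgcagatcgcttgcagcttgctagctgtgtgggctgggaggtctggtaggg
The half-site starts at position -34 relative to the start of transcription in AEN, at -132 in PLK2 and at -59 in RPS27L. These 3 genes gave 3 unlike records on the arrays. PLK2 rose strongly with CDDP in every siRNA group, AEN rose in siCtl cells alone by the test, and RPS27L passed in no group. A match to these letters is a description of the window and is no record of binding.

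Levels are given as log2 of the background-corrected, quantile-normalised intensity of an array. Changes are differences between group means on that scale, so that 1 is a doubling. Tests were limma's moderated tests on all 9808 genes, with Benjamini-Hochberg adjustment and a threshold of 0.05. The raw median intensity of the arrays lay between 54.02 and 65.3, and 27.0 to 31.4% of probes read above 100. Replicate arrays correlated at 0.9941 to 0.9948 over all probes, which is across probes and not across samples. Of 8 markers of mesenchymal and osteoblast cells 6 were above the floor, while COL1A2 and FN1 were not. EPCAM was the 1 of 4 epithelial markers above it, and the summed signal of those 4 ran from 547 to 581 in siCtl cells with vehicle up to 997 to 1040 in siNCoR cells with CDDP; CDH1, KRT19 and CLDN4 were not above it. Leukocyte and endothelial lists had 1 of 3 markers each above it, with leukocyte sums of 176 to 191 in the arrays with vehicle and 202 to 242 in those with CDDP, and endothelial sums of 189 to 214 in all arrays. Their part in the results was not tested.

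In siCtl and siNCoR cells most of the measured p53 targets were higher with CDDP. Under siCtl 16 of 25 rose and 1, APAF1, fell, against 18.2% of all genes tested that rose and 19.4% that fell. In siNCoR cells 15 rose and 1 fell (19.6% and 21.1% of all genes), and in siSMRT cells 11 rose and 2 fell (21.3% and 21.6%). SESN2, counted as higher in siCtl and siNCoR cells, and EDA2R, counted in siNCoR cells, passed the floor only through arrays with CDDP. These counts are thus not wholly independent of that filter. The median change of the 25 genes was 0.45 under siCtl, 0.41 under siNCoR and 0.27 under siSMRT, where the median of all genes was 0.03 in each. With median scaling in place of quantile normalisation 8 genes passed in siNCoR cells in place of 16, and not all 8 were among the 16. EDA2R, PHLDA3, PIDD1, TNFRSF10B, TP53I11, TP53I3, TP53INP1, TRIAP1 and XPC lost their calls as higher there. A rise of most p53 targets in siNCoR cells thus did not hold in that setting. In siCtl cells PIDD1, TIGAR, TP53I11 and XPC lost their calls as higher there, so a rise of most is not secured in siCtl cells either. The share of higher among all genes called was then 26.1% in siCtl and 18.3% in siNCoR cells, against 48.4% and 48.1%. CCNG1, DDB2, RRM2B, RPS27L and ZMAT3 passed in none of the 3 siRNA groups. The 5 largest rises in siCtl cells, of GDF15, PLK2, SESN1, GADD45A and CDKN1A, also passed in siNCoR and siSMRT cells, at changes between 0.66 and 2.31.

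**Figure D1:**
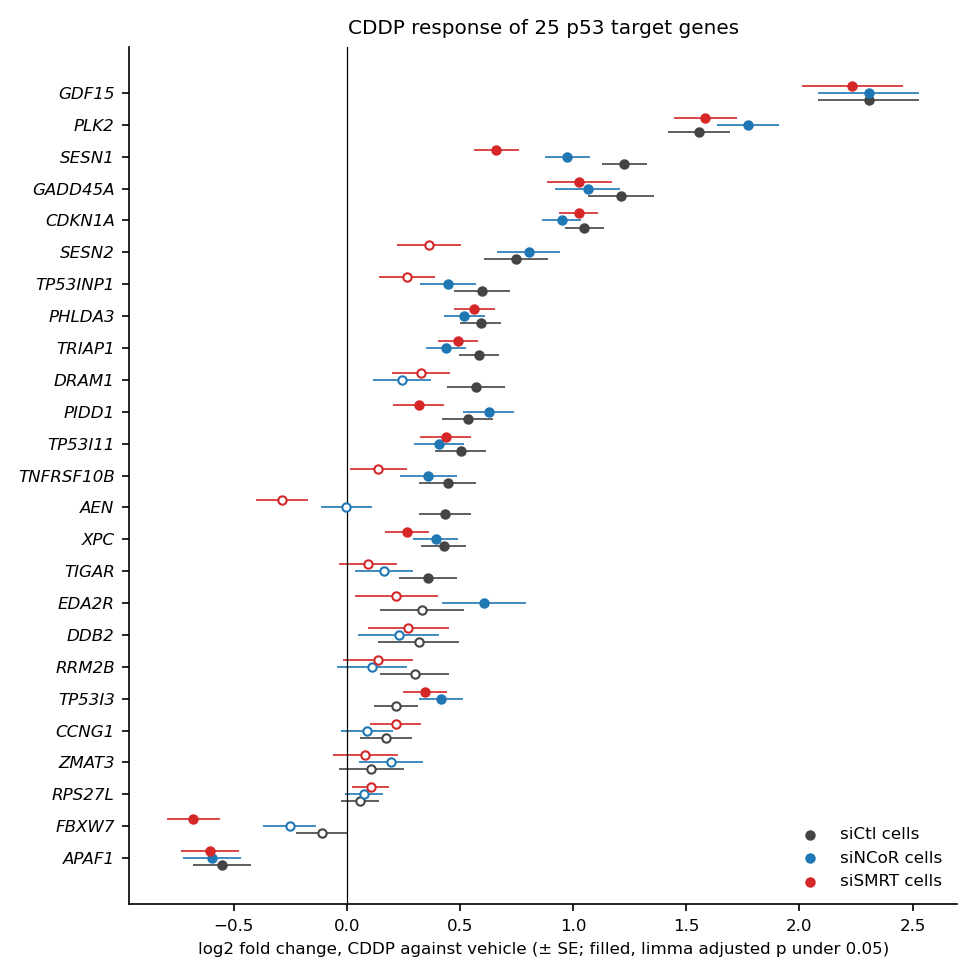
Change with CDDP of each of the 25 p53 target genes, as log2 fold change against vehicle (x axis, mean of 2 arrays against 2, bars are ± SE), in siCtl, siNCoR and siSMRT cells. Filled points had a limma adjusted p under 0.05. GDF15 is at the top at 2.31 in siCtl cells, APAF1 is below 0 in every siRNA group, and AEN is the gene whose 3 points spread from 0.43 to -0.29.

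Of 5 measured cell-cycle brakes CDKN1A, GADD45A and PLK2 rose in each siRNA group. CDKN1A, which encodes the cyclin-dependent kinase inhibitor p21, read 11.89 and 11.78 with vehicle and 12.88 and 12.89 with CDDP in siCtl cells. In siNCoR cells it read 11.81 and 11.80 with vehicle and 12.76 and 12.74 with CDDP. In siSMRT cells it read 10.93 and 10.98 with vehicle and 11.94 and 12.02 with CDDP. All 6 arrays with CDDP were thus above the arrays with vehicle of their own siRNA group, but the siSMRT arrays started lower, and with CDDP they lay just above the siCtl arrays with vehicle. The rise was 1.05 ± 0.086 (SE, adjusted p = 3.05e-06) in siCtl cells, 0.95 ± 0.086 (SE, adjusted p = 6.06e-06) in siNCoR cells and 1.03 ± 0.086 (SE, adjusted p = 3.54e-06) in siSMRT cells. A second, much dimmer probe of CDKN1A (ILMN_1787212) also rose in each group, by 0.77 ± 0.13 (SE, adjusted p = 0.000668) under siCtl, 0.50 ± 0.13 (SE, adjusted p = 0.00997) under siNCoR and 0.42 ± 0.13 (SE, adjusted p = 0.0213) under siSMRT, and its steps were less alike than those of the brightest probe. This dimmer probe was well above the floor only in siCtl cells with CDDP, so its values against that group are not independent of the filter. GADD45A, a stress sensor that slows entry into mitosis, read 11.52 and 11.60 with vehicle and 13.01 and 12.53 with CDDP in siCtl cells. Its levels in siNCoR cells were 11.90 and 11.78 with vehicle and 12.94 and 12.87 with CDDP. In siSMRT cells they were 11.91 and 11.96 with vehicle and 13.11 and 12.82 with CDDP. Treated and untreated arrays did not overlap in any siRNA group, and the changes were 1.21 ± 0.144 (SE, adjusted p = 4.84e-05) in siCtl cells, 1.06 ± 0.144 (SE, adjusted p = 0.000131) in siNCoR cells and 1.03 ± 0.144 (SE, adjusted p = 0.000166) in siSMRT cells.

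PLK2, a polo-like kinase made early after damage, was a dim transcript with vehicle. It read 6.29 and 6.75 with vehicle and 8.22 and 7.94 with CDDP in siCtl cells. Levels of PLK2 in siNCoR cells were 6.54 and 6.43 with vehicle and 8.26 and 8.25 with CDDP. The siSMRT cells gave 6.62 and 6.67 with vehicle and 8.26 and 8.20 with CDDP. The 6 arrays with CDDP lay between 7.94 and 8.26, all above the 6 with vehicle, and the siCtl pair with CDDP was the lowest of the 3 pairs by mean. The change was 1.56 ± 0.138 (SE, adjusted p = 5.26e-06) in siCtl cells, 1.77 ± 0.138 (SE, adjusted p = 1.84e-06) in siNCoR cells and 1.58 ± 0.138 (SE, adjusted p = 4.54e-06) in siSMRT cells. CCNG1, cyclin G1, passed in none of the groups, at 0.17, 0.09 and 0.22 in siCtl, siNCoR and siSMRT cells, although it was a bright transcript with levels from 11.71 to 12.31. PLK3, the other polo-like kinase of the list, was not above the floor.

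FBXW7, the substrate-recognition part of a ubiquitin ligase that removes cyclin E and MYC, had probes that moved in opposite directions. Of its 4 probes 3 passed the floor, and they were designed to 2 different reference transcripts. Probe ILMN_1655906, the only one for its transcript among these 3, read 5.40 and 5.60 with vehicle and 6.60 and 6.68 with CDDP in siCtl cells. It read 5.46 and 5.45 with vehicle and 5.90 and 6.11 with CDDP in siNCoR cells and 5.51 and 5.55 with vehicle and 6.08 and 5.89 with CDDP in siSMRT cells. Its treated arrays were above the untreated ones in each siRNA group, with changes of 1.14 ± 0.111 (SE, adjusted p = 1.1e-05), 0.55 ± 0.111 (adjusted p = 0.0021) and 0.45 ± 0.111 (adjusted p = 0.00659) in the fit over all probes. Only siCtl cells with CDDP had this probe above the floor in both arrays, so its comparisons with that group are not independent of the filter.

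Probe ILMN_1668634 of FBXW7, for the other transcript, went the other way. It read 8.76 and 8.36 with vehicle and 7.16 and 7.01 with CDDP in siCtl cells. In siNCoR cells it gave 8.27 and 7.75 with vehicle and 6.42 and 6.23 with CDDP, and in siSMRT cells 8.95 and 8.87 with vehicle and 7.20 and 6.90 with CDDP. Every treated array was below every untreated array of its siRNA group, and the falls were -1.47 ± 0.175 (SE, adjusted p = 5.08e-05), -1.69 ± 0.175 (adjusted p = 1.76e-05) and -1.86 ± 0.175 (adjusted p = 8.52e-06). Probe ILMN_1754279, for the same transcript, was the brightest and stands for the gene in the counts. That probe read 8.86 and 9.09 with vehicle and 8.74 and 8.99 with CDDP in siCtl cells, where the arrays overlapped. Its levels were 8.43 and 8.51 with vehicle and 8.12 and 8.33 with CDDP in siNCoR cells and 9.04 and 9.09 with vehicle and 8.34 and 8.44 with CDDP in siSMRT cells. By the gene-level test it fell in siSMRT cells alone, with changes of -0.11 ± 0.117 (SE, adjusted p = 0.496) in siCtl cells, -0.25 ± 0.117 (SE, adjusted p = 0.106) in siNCoR cells and -0.68 ± 0.117 (SE, adjusted p = 0.000689) in siSMRT cells. A gene-level value for FBXW7 thus depends on which probe is read.

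**Figure D2:**
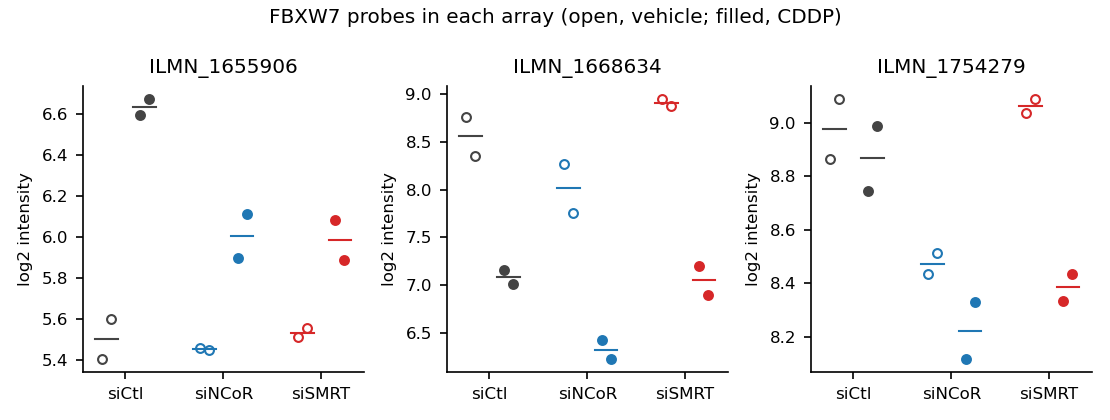
Level of each of the 3 FBXW7 probes above the floor in the 12 arrays, as log2 intensity (y axis, scaled per probe), by siRNA group, open points with vehicle, filled points with CDDP, lines the mean of 2. The left probe rises with CDDP, by 1.14 in siCtl cells, the middle probe falls (-1.47), and the right probe falls past the threshold in siSMRT cells (-0.68). The left probe passed the floor only through siCtl cells with CDDP.

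Of the genes of stress metabolism and redox control 4 of 5 measured rose in siCtl cells, 4 in siNCoR cells and 2 in siSMRT cells. Of all genes 18.2%, 19.6% and 21.3% rose there. SESN1, a sestrin that restrains mTORC1 signalling, read 7.86 and 8.04 with vehicle and 9.15 and 9.20 with CDDP in siCtl cells. In siNCoR cells SESN1 read 7.84 and 7.98 with vehicle and 8.91 and 8.87 with CDDP, and in siSMRT cells 8.09 and 8.16 with vehicle and 8.73 and 8.85 with CDDP. The treated arrays were ordered without overlap, siCtl above siNCoR above siSMRT, while with vehicle the siSMRT pair was the highest. Its changes were 1.23 ± 0.0988 (SE, adjusted p = 2.68e-06) in siCtl cells, 0.97 ± 0.0988 (SE, adjusted p = 1.4e-05) in siNCoR cells and 0.66 ± 0.0988 (SE, adjusted p = 0.000256) in siSMRT cells. SESN2, a second sestrin, was dim and read 5.91 and 5.58 with vehicle and 6.60 and 6.39 with CDDP in siCtl cells. SESN2 levels were 5.52 and 5.51 with vehicle and 6.31 and 6.34 with CDDP in siNCoR cells and 5.51 and 5.74 with vehicle and 6.15 and 5.82 with CDDP in siSMRT cells. The siSMRT pairs lay close together, and the changes were 0.75 ± 0.14 (SE, adjusted p = 0.00132) in siCtl cells, 0.80 ± 0.14 (SE, adjusted p = 0.00076) in siNCoR cells and 0.36 ± 0.14 (SE, adjusted p = 0.053) in siSMRT cells. SESN2 was above the floor in both arrays only in siCtl and siNCoR cells with CDDP. Its comparisons with those groups are thus not independent of the filter.

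TP53INP1, a stress protein that promotes autophagy and p53 activity, read 7.46 and 7.22 with vehicle and 7.85 and 8.03 with CDDP in siCtl cells. Its siNCoR arrays gave 7.30 and 7.43 with vehicle and 7.79 and 7.83 with CDDP, and its siSMRT arrays 6.64 and 6.92 with vehicle and 6.98 and 7.13 with CDDP. A second, dimmer probe of TP53INP1 (ILMN_2214197) did not separate siSMRT from siNCoR cells. Its siNCoR vehicle replicate 1, at 6.68, lay between the siSMRT vehicle arrays at 6.679 and 6.731. In the fit over all probes it differed from siCtl by -0.45 (siNCoR) and -0.58 (siSMRT) with vehicle. With CDDP these differences were -0.39 and -0.97, and only those of siSMRT cells passed. By the brightest probe, whose levels are given above, all 4 siSMRT arrays were below all 8 others. The changes with CDDP were 0.60 ± 0.124 (SE, adjusted p = 0.00259) in siCtl cells, 0.45 ± 0.124 (SE, adjusted p = 0.0129) in siNCoR cells and 0.27 ± 0.124 (SE, adjusted p = 0.0983) in siSMRT cells. The siNCoR call was lost without siNCoR vehicle replicate 1 (0.38, adjusted p = 0.0871) or without siNCoR CDDP replicate 2 (0.43, adjusted p = 0.063), and with median scaling (0.20, adjusted p = 0.342). TIGAR, which lowers glycolytic flux, read 10.15 and 10.31 with vehicle and 10.40 and 10.78 with CDDP in siCtl cells. It passed there narrowly, at 0.36 ± 0.129 (SE, adjusted p = 0.0453), and the call was lost in 13 of 22 alternative settings, among them leaving out 1 of 9 arrays (0.17 to 0.44, adjusted p 0.0522 to 0.366). Its levels ran from 10.37 to 10.68 in siNCoR cells and from 10.19 to 10.39 in siSMRT cells, with changes of 0.17 ± 0.129 (SE, adjusted p = 0.324) and 0.10 ± 0.129 (SE, adjusted p = 0.577). TP53I3, a quinone oxidoreductase, read 8.90 and 8.95 with vehicle and 9.08 and 9.21 with CDDP in siCtl cells, 9.20 and 9.07 with vehicle and 9.51 and 9.59 with CDDP in siNCoR cells and 8.90 and 8.98 with vehicle and 9.36 and 9.21 with CDDP in siSMRT cells. It was above vehicle in all 6 treated arrays and passed in the siNCoR and siSMRT groups, with changes of 0.22 ± 0.0969 (SE, adjusted p = 0.096) in siCtl cells, 0.42 ± 0.0969 (SE, adjusted p = 0.00494) in siNCoR cells and 0.35 ± 0.0969 (SE, adjusted p = 0.0127) in siSMRT cells. The siSMRT call was lost without siSMRT vehicle replicate 1 (0.31, adjusted p = 0.084) or without siSMRT CDDP replicate 1 (0.27, adjusted p = 0.102). Median scaling ended both calls, in siNCoR (0.22, adjusted p = 0.25) and siSMRT cells (0.32, adjusted p = 0.0778).

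Among 3 genes of DNA repair and nucleotide supply only XPC, which recognises damaged bases in nucleotide excision repair, passed. XPC read 9.70 and 9.77 with vehicle and 10.12 and 10.20 with CDDP in siCtl cells. It read 9.47 and 9.66 with vehicle and 9.99 and 9.93 with CDDP in siNCoR cells and 9.49 and 9.62 with vehicle and 9.86 and 9.78 with CDDP in siSMRT cells. Treated arrays were above untreated ones in each group, by 0.43 ± 0.0985 (SE, adjusted p = 0.00473) in siCtl cells, 0.39 ± 0.0985 (SE, adjusted p = 0.00754) in siNCoR cells and 0.27 ± 0.0985 (SE, adjusted p = 0.046) in siSMRT cells. The call in siSMRT cells was lost in 14 of 22 alternative settings, among them leaving out 1 of 10 arrays (0.20 to 0.33, adjusted p 0.0513 to 0.239), and the siNCoR call was lost without siNCoR vehicle replicate 1 (0.29, adjusted p = 0.0777). Scaled to the median, XPC passed in none of the groups (siCtl 0.35, adjusted p = 0.0758, siNCoR 0.23, adjusted p = 0.244, siSMRT 0.29, adjusted p = 0.12). DDB2, the other damage-recognition factor of the pathway, was at 0.32, 0.23 and 0.27 in siCtl, siNCoR and siSMRT cells and overlapped between vehicle and CDDP in all 3 groups. RRM2B, the p53-dependent subunit of ribonucleotide reductase, was at 0.30, 0.11 and 0.14 in siCtl, siNCoR and siSMRT cells, likewise with overlapping arrays.

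Of 4 survival and feedback factors PHLDA3 and TRIAP1 rose in every siRNA group. PHLDA3, an inhibitor of AKT, read 8.58 and 8.65 with vehicle and 9.16 and 9.26 with CDDP in siCtl cells. In siNCoR cells it was at 8.46 and 8.41 with vehicle and 8.99 and 8.92 with CDDP, and in siSMRT cells at 8.41 and 8.45 with vehicle and 9.06 and 8.93 with CDDP. The 3 pairs moved in parallel, with changes of 0.59 ± 0.0903 (SE, adjusted p = 0.000317) in siCtl cells, 0.52 ± 0.0903 (SE, adjusted p = 0.000749) in siNCoR cells and 0.56 ± 0.0903 (SE, adjusted p = 0.000418) in siSMRT cells. TRIAP1, a small protein that limits apoptosome formation, read 9.25 and 9.25 with vehicle and 9.85 and 9.82 with CDDP in siCtl cells. Levels of TRIAP1 were 9.30 and 9.35 with vehicle and 9.80 and 9.72 with CDDP in siNCoR cells and 9.19 and 9.23 with vehicle and 9.63 and 9.78 with CDDP in siSMRT cells. Every treated array was above every untreated array over the 3 groups, and the changes were 0.58 ± 0.0892 (SE, adjusted p = 0.000319) in siCtl cells, 0.44 ± 0.0892 (SE, adjusted p = 0.00221) in siNCoR cells and 0.49 ± 0.0892 (SE, adjusted p = 0.000977) in siSMRT cells. In siNCoR cells both calls were lost with median scaling, PHLDA3 at 0.31, adjusted p = 0.107 and TRIAP1 at 0.26, adjusted p = 0.178. RPS27L, a ribosomal protein paralogue and the brightest of the 25 genes at 14.26 to 14.59, was at 0.06, 0.08 and 0.11 in siCtl, siNCoR and siSMRT cells, and the RNA-binding protein gene ZMAT3 at 0.11, 0.20 and 0.08 in siCtl, siNCoR and siSMRT cells. Neither passed.

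Of the death receptors and apoptosis genes 4 of 6 measured rose and 1 fell in siCtl cells, with the same counts in siNCoR cells, and 2 rose and 1 fell in siSMRT cells. Of all genes 18.2%, 19.6% and 21.3% rose and 19.4%, 21.1% and 21.6% fell in these groups. TNFRSF10B, the TRAIL receptor DR5, read 10.30 and 10.39 with vehicle and 10.63 and 10.95 with CDDP in siCtl cells. Its levels were 9.97 and 10.17 with vehicle and 10.34 and 10.51 with CDDP in siNCoR cells and 10.34 and 10.45 with vehicle and 10.45 and 10.62 with CDDP in siSMRT cells. The siSMRT pairs met at 10.45, and the changes were 0.45 ± 0.125 (SE, adjusted p = 0.0143) in siCtl cells, 0.36 ± 0.125 (SE, adjusted p = 0.0362) in siNCoR cells and 0.14 ± 0.125 (SE, adjusted p = 0.384) in siSMRT cells. The siCtl call was lost without siCtl vehicle replicate 1 (0.40, adjusted p = 0.0822) or without siCtl CDDP replicate 2 (0.29, adjusted p = 0.139), and the siNCoR call without siNCoR vehicle replicate 1 (0.26, adjusted p = 0.218) or without siNCoR CDDP replicate 2 (0.28, adjusted p = 0.2), with median scaling (0.24, adjusted p = 0.235) and with no filter on dim probes (0.36, adjusted p = 0.0776). PIDD1, a scaffold for caspase-2 activation, read 7.10 and 7.07 with vehicle and 7.45 and 7.78 with CDDP in siCtl cells, 6.81 and 6.98 with vehicle and 7.55 and 7.50 with CDDP in siNCoR cells and 7.23 and 7.30 with vehicle and 7.61 and 7.55 with CDDP in siSMRT cells. It rose in all 3 groups, by 0.54 ± 0.112 (SE, adjusted p = 0.00271) in siCtl cells, 0.63 ± 0.112 (SE, adjusted p = 0.000901) in siNCoR cells and 0.32 ± 0.112 (SE, adjusted p = 0.0372) in siSMRT cells. The siSMRT call was lost without any 1 of the 4 siSMRT arrays (0.28 to 0.35, adjusted p 0.0786 to 0.16), with the authors' processed values (0.25, adjusted p = 0.0668) and with no filter on dim probes (0.32, adjusted p = 0.0871). Under median scaling PIDD1 passed in none of the groups (siCtl 0.35, adjusted p = 0.0835, siNCoR 0.38, adjusted p = 0.0556, siSMRT 0.22, adjusted p = 0.254).

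TP53I11, a little-studied p53-induced membrane protein, read 6.71 and 6.45 with vehicle and 7.17 and 6.99 with CDDP in siCtl cells. It gave 6.52 and 6.62 with vehicle and 7.01 and 6.95 with CDDP in siNCoR cells and 6.81 and 6.93 with vehicle and 7.26 and 7.35 with CDDP in siSMRT cells. Treated and untreated arrays did not overlap in any group, and the changes were 0.50 ± 0.111 (SE, adjusted p = 0.00375) in siCtl cells, 0.41 ± 0.111 (SE, adjusted p = 0.0116) in siNCoR cells and 0.44 ± 0.111 (SE, adjusted p = 0.00775) in siSMRT cells. The siNCoR call was lost without siNCoR vehicle replicate 1 (0.36, adjusted p = 0.0767) or without siNCoR CDDP replicate 1 (0.38, adjusted p = 0.0527), and the siSMRT call without siSMRT vehicle replicate 1 (0.38, adjusted p = 0.0653) or without siSMRT CDDP replicate 2 (0.39, adjusted p = 0.0582). All 3 calls of TP53I11 were lost with median scaling (siCtl 0.33, adjusted p = 0.118, siNCoR 0.19, adjusted p = 0.384, siSMRT 0.34, adjusted p = 0.0915). EDA2R, the receptor for ectodysplasin A2, was dim and read 6.16 and 6.07 with vehicle and 6.28 and 6.61 with CDDP in siCtl cells. Levels of EDA2R were 5.96 and 5.88 with vehicle and 6.37 and 6.68 with CDDP in siNCoR cells and 6.01 and 6.07 with vehicle and 5.93 and 6.59 with CDDP in siSMRT cells. All vehicle arrays of EDA2R were below the floor, so its rise is not independent of the filter, which it passed through arrays with CDDP. Its replicates with CDDP lay far apart in siSMRT cells, and it passed in siNCoR cells only, with changes of 0.33 ± 0.184 (SE, adjusted p = 0.179) in siCtl cells, 0.61 ± 0.184 (SE, adjusted p = 0.0204) in siNCoR cells and 0.22 ± 0.184 (SE, adjusted p = 0.356) in siSMRT cells. That call was lost without siNCoR vehicle replicate 1 (0.64, adjusted p = 0.0598) or without siNCoR vehicle replicate 2 (0.57, adjusted p = 0.0898) or without siNCoR CDDP replicate 2 (0.45, adjusted p = 0.148), and with median scaling (0.43, adjusted p = 0.0603).

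AEN and APAF1 departed from the rest of this group. AEN, an apoptosis-enhancing nuclease, read 11.11 and 11.19 with vehicle and 11.55 and 11.62 with CDDP in siCtl cells. In siNCoR cells it read 11.34 and 11.43 with vehicle and 11.55 and 11.21 with CDDP, and in siSMRT cells 11.46 and 11.51 with vehicle and 11.13 and 11.27 with CDDP. The siCtl pair with CDDP was above its vehicle pair, the siNCoR pairs overlapped and the siSMRT pair with CDDP was below its vehicle pair. The changes were 0.43 ± 0.113 (SE, adjusted p = 0.00963) in siCtl cells, -0.00 ± 0.113 (SE, adjusted p = 0.993) in siNCoR cells and -0.29 ± 0.113 (SE, adjusted p = 0.0576) in siSMRT cells. When replicates were blocked the fall in siSMRT cells passed as well. The rise in siCtl cells was lost without siCtl vehicle replicate 1 (0.40, adjusted p = 0.0602) or without siCtl CDDP replicate 2 (0.40, adjusted p = 0.0564). APAF1, the core of the apoptosome, read 8.97 and 8.68 with vehicle and 8.25 and 8.30 with CDDP in siCtl cells. Levels of APAF1 were 9.20 and 9.13 with vehicle and 8.72 and 8.41 with CDDP in siNCoR cells and 8.91 and 8.68 with vehicle and 8.19 and 8.19 with CDDP in siSMRT cells. All treated arrays were below the untreated ones of their group, and the falls were -0.55 ± 0.128 (SE, adjusted p = 0.00528) in siCtl cells, -0.60 ± 0.128 (SE, adjusted p = 0.00312) in siNCoR cells and -0.60 ± 0.128 (SE, adjusted p = 0.0028) in siSMRT cells. The siCtl call was lost without siCtl vehicle replicate 1 (-0.41, adjusted p = 0.0617).

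GDF15, a secreted stress cytokine of the TGF-beta family, had the largest change of the 25 genes in every siRNA group. It read 9.55 and 10.02 with vehicle and 11.88 and 12.30 with CDDP in siCtl cells. GDF15 levels were 9.17 and 9.84 with vehicle and 11.63 and 11.99 with CDDP in siNCoR cells and 9.49 and 9.65 with vehicle and 11.70 and 11.90 with CDDP in siSMRT cells. Every array with CDDP was above every array with vehicle, and replicate 2 was the higher of the pair in all 6 groups. The changes were 2.31 ± 0.223 (SE, adjusted p = 1.01e-05) in siCtl cells, 2.31 ± 0.223 (SE, adjusted p = 1.01e-05) in siNCoR cells and 2.23 ± 0.223 (SE, adjusted p = 1.27e-05) in siSMRT cells, a 4.95-fold rise in siCtl cells. DRAM1, a lysosomal membrane protein of autophagy, read 8.0 and 8.29 with vehicle and 8.60 and 8.83 with CDDP in siCtl cells. Its levels were 8.54 and 8.59 with vehicle and 8.80 and 8.82 with CDDP in siNCoR cells and 7.90 and 8.12 with vehicle and 8.23 and 8.45 with CDDP in siSMRT cells. The treated arrays of siNCoR cells were within the range of the siCtl treated pair, but their vehicle arrays were higher. The log2 fold changes of DRAM1 were 0.57 ± 0.128 (SE, adjusted p = 0.00409) in siCtl cells, 0.24 ± 0.128 (SE, adjusted p = 0.148) in siNCoR cells and 0.33 ± 0.128 (SE, adjusted p = 0.055) in siSMRT cells. When replicates were blocked the rises of DRAM1 in siNCoR and siSMRT cells and of SESN2 in siSMRT cells passed too, as did a fall of FBXW7 in siNCoR cells. That fit called 44.5%, 48.3% and 50.7% of all genes in siCtl, siNCoR and siSMRT cells.

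**Figure D3:**
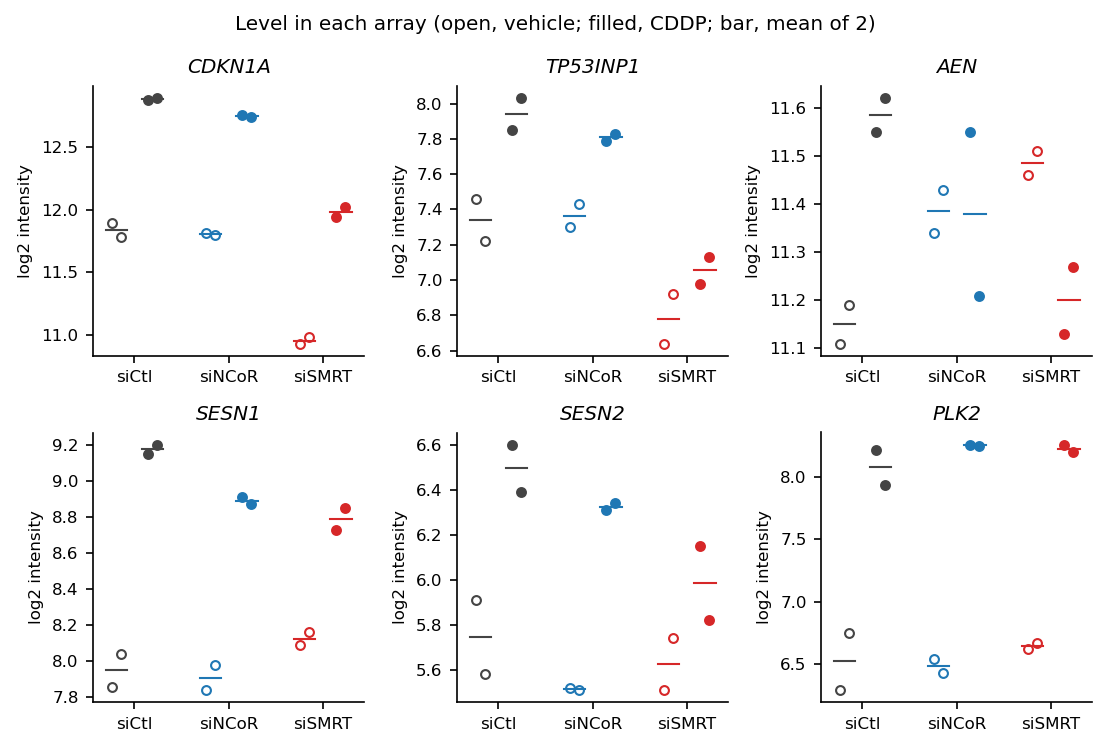
Level of 6 of the p53 targets in each array, as log2 intensity (y axis, scaled per gene), by siRNA group, open points with vehicle, filled points with CDDP, lines the mean of 2. The brightest CDKN1A probe, which is plotted, rises by 0.95 to 1.05 in each group from a lower start in siSMRT cells (10.93 and 10.98), and AEN passes as higher in siCtl cells only.

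The comparison of siSMRT with siCtl cells on vehicle asks what the SMRT siRNA did before damage. By the brightest probe of each gene CDKN1A and TP53INP1 were lower, and no p53 target was higher, where 7.25% of all genes were higher and 8.52% lower. CDKN1A differed by -0.88 ± 0.086 (SE, adjusted p = 0.000171), or 1.84-fold, with 2 of 2 siSMRT arrays below both siCtl arrays. TP53INP1 differed by -0.56 ± 0.124 (SE, adjusted p = 0.0112), also without overlap, and was lost without siCtl vehicle replicate 1 (-0.43, adjusted p = 0.107) or without siSMRT vehicle replicate 1 (-0.42, adjusted p = 0.108). AEN and GADD45A were at 0.34 ± 0.113 (SE, adjusted p = 0.0634) and 0.38 ± 0.144 (SE, adjusted p = 0.1), and both passed as higher with the replicate number as a block, which made 4 genes called in place of 2 while that fit called 11.4% of all genes as higher and 12.3% as lower. The dimmer probe of RRM2B (ILMN_2170595), not the one counted, read 8.19 and 8.23 in siCtl cells with vehicle and 7.25 and 7.51 in siSMRT cells. In the fit over all probes it passed as lower, at -0.83 ± 0.137 (SE, adjusted p = 0.00257), while the brighter probe was at -0.13 ± 0.154 (SE, adjusted p = 0.632). For CDKN1A the dimmer probe was at -0.27 ± 0.13 (SE, adjusted p = 0.187). The median difference of the 25 genes was -0.04.

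With CDDP 7 of 25 p53 targets were lower in siSMRT than in siCtl cells and none was higher, against 9.4% of all genes lower and 7.89% higher. The 7 were CDKN1A at -0.91 ± 0.086 (SE, adjusted p = 0.00012), TP53INP1 at -0.89 ± 0.124 (SE, adjusted p = 0.00109), SESN2 at -0.50 ± 0.14 (SE, adjusted p = 0.029), FBXW7 at -0.48 ± 0.117 (SE, adjusted p = 0.0163), SESN1 at -0.39 ± 0.0988 (SE, adjusted p = 0.0194), AEN at -0.38 ± 0.113 (SE, adjusted p = 0.0357) and XPC at -0.34 ± 0.0985 (SE, adjusted p = 0.0337). In each of these the 2 siSMRT arrays were below the 2 siCtl arrays. For SESN2 the treated siCtl arrays are among those that brought it past the floor, so its call is not independent of that filter. CDKN1A and TP53INP1 thus differed with and without the drug, while SESN1, AEN, FBXW7, SESN2 and XPC had values of 0.17, 0.34, 0.09, -0.12 and -0.18 on vehicle that did not pass. For FBXW7 the probe that rose with CDDP was also lower in treated siSMRT cells, at -0.65 ± 0.111 (SE, adjusted p = 0.00278), but the strongly falling probe was at -0.03 ± 0.175 (SE, adjusted p = 0.925). The rising probe passed the floor only through siCtl cells with CDDP, the group compared, so its lower value is no separate support. Of the 25 genes 20 had a negative difference, with a median of -0.23, where 4799 of all 9808 genes were negative and their median was 0.01. With replicates blocked 9 genes passed, the added ones being DRAM1 and TNFRSF10B, where that fit called 13.5% of all genes as lower and 12.2% as higher. The dimmer probes of CDKN1A and RRM2B were lower here too, at -0.62 ± 0.13 (SE, adjusted p = 0.00782) and -0.61 ± 0.137 (SE, adjusted p = 0.0116), as was 1 of the 3 ZMAT3 probes, ILMN_1865764, at -0.47 ± 0.111 (SE, adjusted p = 0.0144). The dimmer CDKN1A probe was well above the floor only in treated siCtl cells, so its value is no separate support. AEN, SESN2 and XPC lost their calls with median scaling, and without a filter on dim probes SESN1 did as well. AEN and XPC each lost the call when any single array of the 2 groups compared was left out, and FBXW7, SESN1 and SESN2 when certain single arrays were. XPC also lost the call with only the arrays compared in the fit. CDKN1A and TP53INP1 kept it in every setting.

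The same comparisons were made between siNCoR and siCtl cells. By the brightest probe of each gene FBXW7 alone was lower on vehicle, at -0.50 ± 0.117 (SE, adjusted p = 0.0303), and none was higher, against 2.29% and 2.97% of all genes. Without the filter on dim probes, or with only the arrays of the comparison in the fit, 0 genes passed, and with the replicate number as a block DRAM1 passed beside FBXW7, at 0.42 ± 0.128 (SE, adjusted p = 0.0842) without the block, in a fit that called 10.1% of all genes. Leaving out any 1 of the 4 arrays also left 0 genes (-0.61 to -0.39, adjusted p 0.0627 to 0.177 for FBXW7). With CDDP FBXW7 was lower, at -0.64 ± 0.117 (SE, adjusted p = 0.00804), and TP53I3 was higher, at 0.41 ± 0.0969 (SE, adjusted p = 0.0288), against 3.11% and 3.51% of all genes. All 3 FBXW7 probes had negative differences that passed there, -0.63, -0.76 and -0.64. The probe at -0.63, ILMN_1655906, passed the floor only through siCtl cells with CDDP and is no separate support. The blocked fit called 4 genes, with SESN1 and TNFRSF10B added, and 12.8% of all genes, and the fit to the 4 arrays of the comparison called 0. The call of FBXW7 was lost without siCtl CDDP replicate 2 (-0.52, adjusted p = 0.0659), and that of TP53I3 without any 1 of the 4 arrays (0.34 to 0.47, adjusted p 0.0554 to 0.158) and with median scaling (0.30, adjusted p = 0.275). In the fit over all probes the dimmer probe of CDKN1A was lower there, at -0.61 ± 0.13 (SE, adjusted p = 0.018), where the brighter one was at -0.13 ± 0.0886 (SE, adjusted p = 0.431). That dimmer probe was well above the floor only in siCtl cells with CDDP, the group compared.

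**Figure D4:**
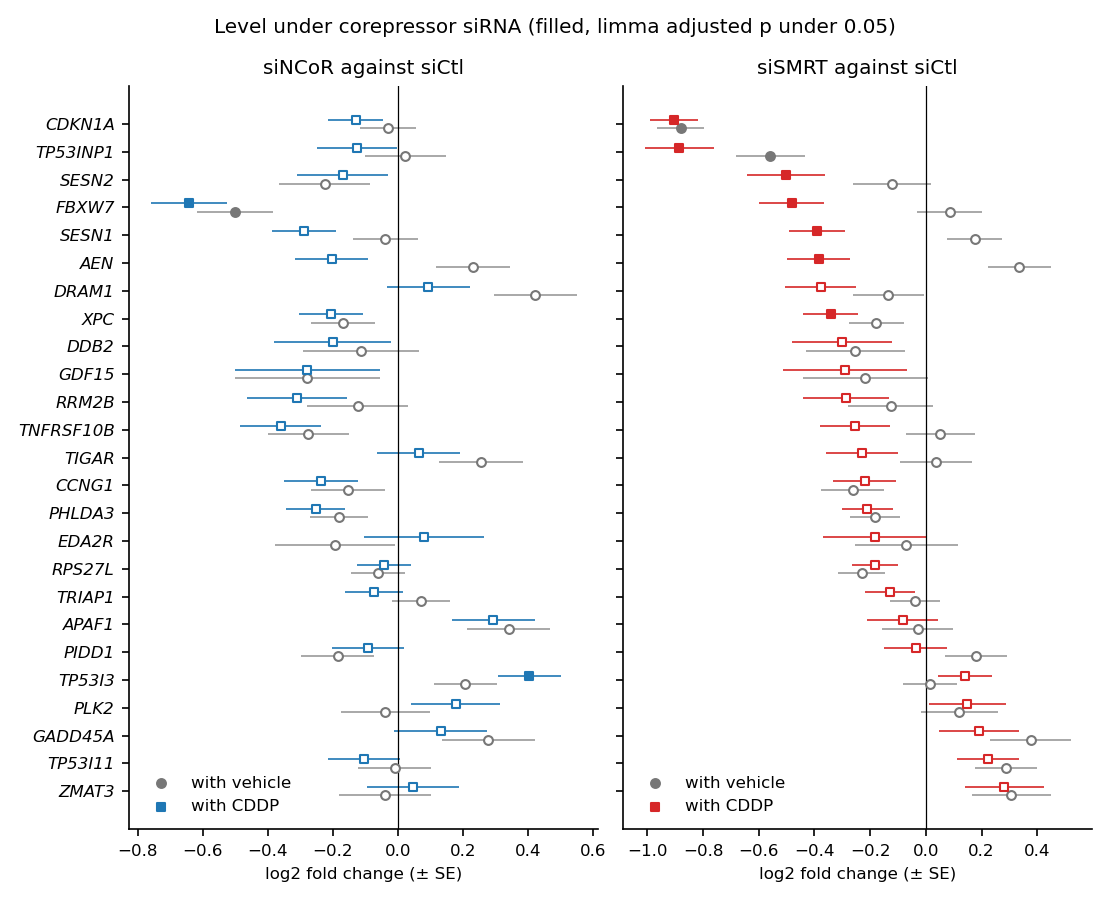
Level of each of the 25 p53 target genes in siNCoR cells (left) and siSMRT cells (right) against siCtl cells, as log2 fold change (x axis, bars are ± SE), grey circles with vehicle and coloured squares with CDDP, filled where the limma adjusted p was under 0.05. In siSMRT cells with CDDP 20 of 25 genes lie below 0 and 7 are filled, CDKN1A being the lowest at -0.91.

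Whether the response to CDDP itself differed between siRNA groups was tested as the difference of the 2 responses, and none of the 25 genes passed in any of the 3 differences by limma. Of all genes 0.0102% (1 gene) passed as lower and 0% as higher for siSMRT minus siCtl, and 0% either way for siNCoR minus siCtl and for siSMRT minus siNCoR. At an unadjusted p under 0.05 there were 3 (siSMRT minus siCtl), 1 (siNCoR minus siCtl) and 3 (siSMRT minus siNCoR) of the 25 genes, against 897, 473 and 335 of all 9808, and the blocked fit also called 0. For siSMRT minus siCtl the smallest p belonged to AEN, with a difference of -0.72 ± 0.159 (SE, adjusted p = 0.23) and a 95% interval of -1.07 to -0.37, negative in both replicate pairs (-0.77 and -0.67). SESN1 followed at -0.57 ± 0.14 (SE, adjusted p = 0.268), FBXW7 at -0.57 ± 0.166 (SE, adjusted p = 0.398), SESN2 at -0.38 ± 0.198 (SE, adjusted p = 0.579) and TP53INP1 at -0.33 ± 0.175 (SE, adjusted p = 0.591). For SESN2 the siCtl arrays with CDDP are among those that brought it past the floor, so its difference is not independent of that filter. In the blocked fit the adjusted p of AEN, SESN1 and FBXW7 was 0.0885. Of the 25 genes 21 had a negative difference, with a median of -0.11, where 4895 of all 9808 genes were negative and their median was 0. The genes share the same arrays, so their signs are not independent of each other.

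For siNCoR minus siCtl the 5 smallest p belonged to AEN (-0.44 ± 0.159 SE, adjusted p = 0.977), SESN1 (-0.25), DRAM1 (-0.33), TP53I3 (0.20) and TRIAP1 (-0.15), none past the threshold. For siSMRT minus siNCoR they belonged to FBXW7 (-0.43), SESN1 (-0.31), SESN2 (-0.44), PIDD1 (-0.31) and AEN (-0.29), with adjusted p of 1. The SESN2 value here draws on the siNCoR arrays with CDDP that helped bring it past the floor, so it is not independent of that filter. No difference passing does not show that the responses were alike. For the brightest CDKN1A probe the 95% interval of the difference was -0.29 to 0.24 in siSMRT and -0.36 to 0.17 in siNCoR cells, and for PHLDA3 -0.31 to 0.25 and -0.35 to 0.21. For the dimmer CDKN1A probe the differences were -0.35 ± 0.184 (SE, adjusted p = 0.605) and -0.28 ± 0.184 (SE, adjusted p = 0.987). Both draw on the siCtl arrays with CDDP that brought this probe past the floor. The 2 sets of differences share the siCtl arrays and are not independent of each other.

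Other genes of the pathway were read from lists kept apart from the 31. Of 33 other measured p53 targets 16 rose and 0 fell in siCtl cells, 17 rose and 2 fell in siNCoR cells, and 15 rose and 3 fell in siSMRT cells, with median changes of 0.26, 0.35 and 0.20. These are 48.5%, 51.5% and 45.5% of the list as higher, against the 18.2%, 19.6% and 21.3% of all genes. The 4 with the smallest p in siCtl cells were SERTAD1, a CDK4-binding protein, at 2.00 ± 0.124 (SE, adjusted p = 5.56e-07), BLOC1S2, a subunit of a lysosome biogenesis complex, at 1.30 ± 0.0843 (adjusted p = 7e-07), the ubiquitin ligase gene RNF19B at 1.39 ± 0.135 (adjusted p = 1.02e-05) and SFN, a 14-3-3 protein that holds cells in G2, at 1.19 ± 0.124 (adjusted p = 1.7e-05). Of 20 measured regulators of p53 4 rose and 5 fell in siCtl cells, 3 and 7 in siNCoR cells, and 2 and 9 in siSMRT cells. In siCtl cells that is 20% of the list as higher and 25% as lower, near the 18.2% and 19.4% of all genes, and in siSMRT cells 10% and 45%, against 21.3% and 21.6%. Among these COP1, a ubiquitin ligase of p53, was at -1.13 ± 0.0928 (SE, adjusted p = 3.05e-06), the acetyltransferase gene CREBBP at -1.26 ± 0.11 (adjusted p = 4.82e-06), the kinase gene DYRK2 at 0.88 ± 0.0989 (adjusted p = 3.19e-05) and the deacetylase gene SIRT1 at 0.78 ± 0.131 (adjusted p = 0.000625). Of 4 measured BCL2-family targets 1 (25%) rose in siCtl cells and 3 (75%) each in siNCoR and siSMRT cells. The shares of all genes were again 18.2%, 19.6% and 21.3%, so the 25% in siCtl cells is near that of all genes. PMAIP1 (NOXA), the one called in siCtl cells, was at 1.80 ± 0.128 (SE, adjusted p = 1.21e-06).

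The length of the transcription unit in RefSeq (GRCh38.p14) was set beside the response. The 25 genes had a median length of 23.4 kb, against 29.1 kb for 9799 genes tested with a length, and 15 of them were among the shorter 50% of genes. Across the 25 genes Spearman's rho of length and response was -0.47 for siCtl, -0.52 for siNCoR and -0.67 for siSMRT, and across all genes -0.50, -0.52 and -0.48. Genes are not independent replicates, the arrays are shared and no p is given. In siCtl cells the median change of the p53 targets was 0.58 for those 15 and 0.35 for the other 10, where all shorter and longer genes had medians of 0.15 and -0.14. GDF15 (3.02 kb) was among the shortest of the 25, and APAF1 (90.1 kb), which fell, and FBXW7 (216 kb), whose probes disagreed, were among the longest. SESN1 (111 kb), also long, rose by 1.23 in siCtl and 0.66 in siSMRT cells. TRIAP1, the shortest at 2.42 kb, rose by 0.58 in siCtl cells.

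**Figure D5:**
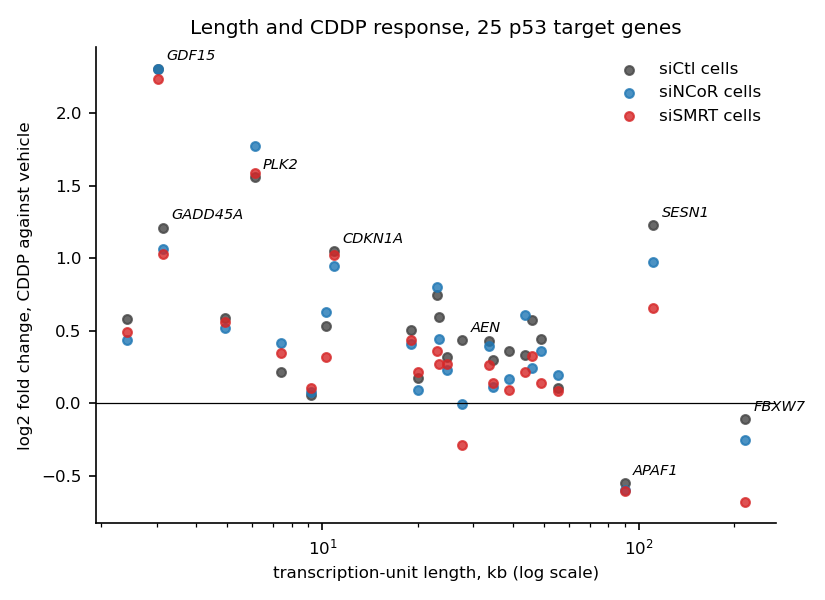
Change with CDDP of the 25 p53 target genes (y axis, log2 fold change) against the length of their transcription unit (x axis, kb, log scale) in siCtl, siNCoR and siSMRT cells, with 8 genes named at their siCtl point. The shorter genes lie higher (rho -0.47 in siCtl cells), with SESN1 at 111 kb above the other long genes.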

How the data were processed

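U2OS RNA was amplified, labelled with biotin and hybridised to Illumina Expression BeadChips. The deposited files give 1 raw intensity per probe and array. The submitters' processing notes name BeadStudio, and its version was not given in the sources used here. A deposited table of intensity values that the authors normalised by multi-loess over all arrays (array medians 57.1 to 57.3) served as an alternative. There were no detection p-values. Intensities were background-corrected (normexp, offset 16), quantile-normalised and log2-transformed with limma 3.58.1 in R 4.3.3. Probes had to reach 100 in both arrays of at least 1 group, and the brightest probe stood for a gene. Of the probes, 27578 named 1 gene, 13 several and 21212 none. One coefficient per group was fitted over all 12 arrays (6 residual degrees of freedom), with 10 contrasts. The same model was also fitted to the 12638 probes above the floor that named 1 gene. Values of dimmer probes, and of brighter ones set beside them in that fit, come from it. Samples were grouped by title, and the knock-down was not analysed here. Same-numbered replicates deviated together in 15 of 15 pairs of groups (correlation 0.204 to 0.42), so the replicate number was also fitted as a block. With 2 arrays per group the number of arrays limits the precision.

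The p53 targets and other lists were chosen with earlier results of these data known. All 31 are accounted for by name; array values are given for those called in at least 1 CDDP comparison and for probes of a gene called in opposite directions with CDDP; differences between responses name the 5 of smallest p, and other lists up to 4. On data simulated for CDDP against vehicle in siCtl cells over 9808 genes, 62 of 100 changes of 0.5 and 97 of 100 of 1 were recovered, with 9 false among 168 calls. The simulation changed far fewer genes than were called in the real comparison. It also drew the noise of each array independently, so its figures need not hold for these data. The alternatives were other background correction, scaling, floors, probe rules, fits and leaving out each array. Figures were drawn with matplotlib 3.10.9 in Python 3.11.15.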

Additional observations from a re-analysis of the deposited data

How the results depend on the processing

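None of the calls of the p53 targets turned direction in the settings run. Among named genes 681 results stayed as in the main fit and 40 lost a call over the settings other than leaving out an array, and 807 and 69 when 1 array was left out. The unchanged results include differences between responses that had no call to lose. With median scaling the p53 targets called with CDDP in siNCoR cells numbered 8, against 16, and for siNCoR against siCtl with CDDP 1 against 2, and for siSMRT against siCtl with CDDP 4 against 7. Median scaling put the median of all genes at -0.058 (siCtl), -0.11 (siNCoR) and 0.062 (siSMRT) with CDDP, and the share of calls that were higher at 26.1%, 18.3% and 48.1%, against 48.4%, 48.1% and 49.7%. Without the filter on dim probes 0 passed for siNCoR against siCtl with vehicle, 1 with CDDP, and 3 for siSMRT against siCtl with CDDP. With only the arrays compared in the fit the siNCoR counts were 0 with vehicle and 0 with CDDP. With the mean of a gene's probes 4, against 2, passed for siSMRT against siCtl with vehicle. The cause was not tested. The share of all genes called in these settings is not given here, so the counts show only how stable the calls were. With a replicate block the counts were 2 for siNCoR and 4 for siSMRT against siCtl with vehicle, 4 for siNCoR and 9 for siSMRT with CDDP, and 17, 18 and 16 for CDDP in siCtl, siNCoR and siSMRT cells. The block lost none of the calls and added those named with the results above.

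Leaving out each array in turn gave 13 to 17 p53 targets called with CDDP under siCtl, 11 to 16 under siNCoR and 9 to 14 under siSMRT. The range was 0 to 1 for siNCoR and 1 to 3 for siSMRT against siCtl with vehicle, 0 to 2 and 3 to 7 with CDDP, and 0 to 0 for the differences between responses. With 1 array left in a group, that array is assumed to vary like the other groups. The share of all genes called in these fits is not given here, so the counts describe the p53 targets alone. The calls of GDF15, PLK2, SESN1, GADD45A and CDKN1A with CDDP held in every setting run. A dim probe is limited by signal over background, and no level is given for the 4 genes below the floor.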
